A study of Mus musculus with 4 samples.

Results

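The 10 genes described here code for secreted cues that steer growing axons and for the receptors that read them: the ligands Slit3 and Sema3c, and the receptors Robo1, Robo2, Nrp1, Nrp2, Plxna4, Dcc, Unc5d and Epha5. They were taken by gene symbol, 10 of the 27998 gene rows of the Illumina tables and 32 of the 31986 isoform rows of the Nanopore tables. The cells came from the cortex, hippocampus and subventricular zone of 1 C57BL/6 mouse embryo at embryonic day 18. One droplet emulsion was divided into a 190-cell and a 951-cell aliquot, and the cDNA of each aliquot was read both as 3′ tags on Illumina and as whole molecules on Nanopore, which gave 4 libraries. No genotype or treatment was compared, so the comparisons run between cell classes and between the platforms, and the 2 aliquots of 1 animal give a spread that is technical.

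Slit proteins bind Robo receptors, and mostly repel axons and migrating neurons. Class 3 semaphorins such as Sema3c are secreted, bind the neuropilins Nrp1 and Nrp2, and signal through A-type plexins such as Plxna4. Netrins attract axons through Dcc and repel them through Unc5 receptors, while Eph receptors such as Epha5 bind membrane-bound ephrins and sort projections into maps. In the embryonic cortex these genes guide the callosal, corticofugal and thalamocortical tracts and the migration of interneurons.

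Of 1141 barcodes, 1121 had at least 1400 Illumina genes and were kept, 186 from the 190-cell and 935 from the 951-cell aliquot. The Illumina libraries held 1809081 and 8295650 unique molecular identifiers (UMIs, each counting 1 captured molecule) in these cells, and the Nanopore libraries 993220 and 4889148. The aliquots shared 12 cell barcodes among the kept cells, and calls that were lost without these 24 cells are named below. Clusters were built without the 10 genes and without a list of 98 other guidance genes, so that none of these genes shaped the classes. They were named from marker genes as radial glia-like (67 cells), cycling radial glia-like (115), intermediate progenitor-like (80), immature and mature glutamatergic-like (240 and 136), immature and mature GABAergic-like (173 and 144) and Cajal-Retzius-like (17). A further cluster of 138 cells led by Nefl, Sla and Mef2c stayed unnamed. The immature GABAergic-like cells were led by Ebf1, Isl1 and Foxp2 and the mature ones by Sst, Maf and Nxph1, so these names rank marker levels and are not stages of 1 lineage. Another 11 cells, all from the 951-cell aliquot, carried microglial, mural or oligodendrocyte precursor markers and were set apart. Summed endothelial and mural markers were highest among the tested classes in radial glia-like cells, at 22.5 and 35.2 CPM (UMIs per 1000000 UMIs of the class), oligodendrocyte precursor markers in cycling radial glia-like cells, at 85.5, and summed microglial markers stayed at or below 7.02 in the tested classes. Erythroid markers, which none of these classes should make, lay between 551 and 775 CPM in the 9 classes and clusters. The median depth of a cell ran from 4868 UMIs in mature GABAergic-like to 14728.5 in mature glutamatergic-like cells, by aliquot. The part of these other cells, of free RNA and of depth in the results was not tested. The tests take the classes as given, although they were built from other genes of the same cells.

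**Figure D1:**
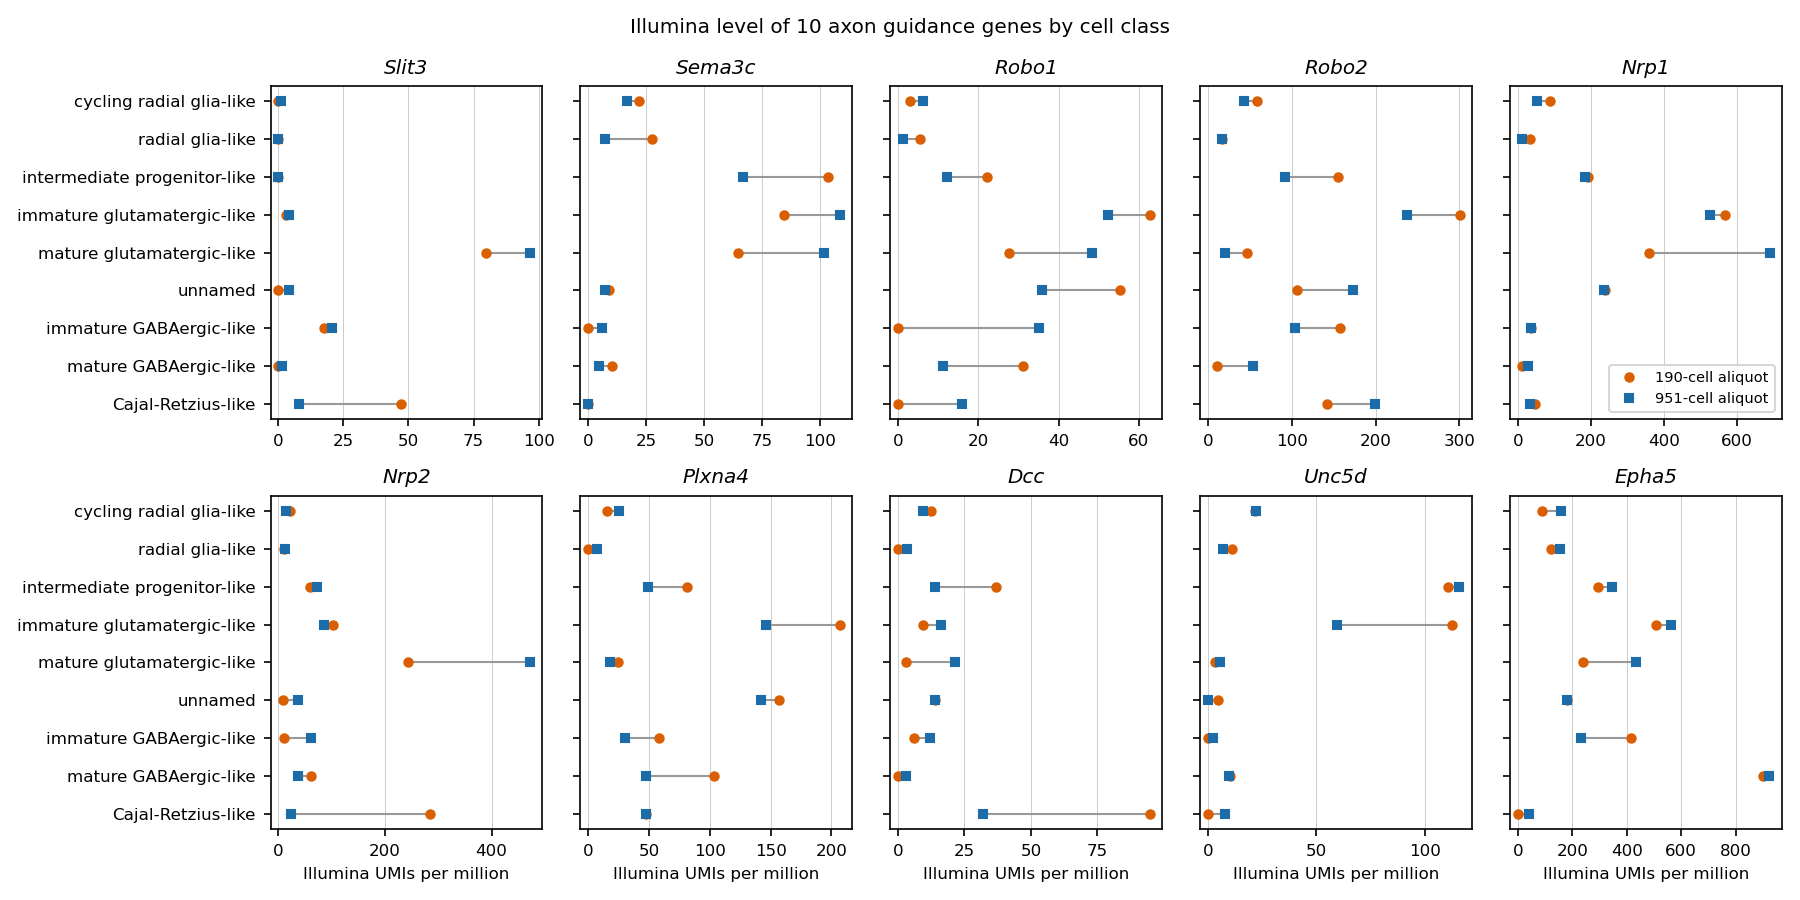
Illumina level of each of the 10 genes in 9 cell classes, in CPM (UMIs of the gene per 1000000 UMIs of the class; x axis, a separate linear scale for each gene). The circle is the 190-cell aliquot, the square the 951-cell aliquot, and the grey line joins them. Slit3 stands out in mature glutamatergic-like cells at 79.9 and 96.5, Unc5d in intermediate progenitor-like and immature glutamatergic-like cells, and Epha5 in mature GABAergic-like cells at 902 and 924.

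Slit3, a secreted repellent, was the most restricted of the 10 genes by the number of classes at 0. In mature glutamatergic-like cells it reached 79.9 CPM in the 190-cell and 96.5 in the 951-cell aliquot. It followed at 17.5 and 20.6 in immature GABAergic-like cells, and lay at 3.13 and 4.36 in immature glutamatergic-like cells. The Cajal-Retzius-like value rested on 2 UMIs and 1 UMI. No Slit3 UMI was found among the 704344 UMIs of intermediate progenitor-like cells or the 1022331 of radial glia-like cells, and 1 was found in mature GABAergic-like cells. The mature glutamatergic-like aliquots did not overlap those of any other class.

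Sema3c, a secreted semaphorin, was spread over the glutamatergic series and low elsewhere. Its level was 84.5 and 108 CPM in immature glutamatergic-like cells, 103 and 66.8 in intermediate progenitor-like cells and 64.5 and 101 in mature glutamatergic-like cells. These 3 classes overlapped each other between aliquots and stood clear of the others, which ranged from 0 in Cajal-Retzius-like cells to 27.7 in 1 radial glia-like aliquot.

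Robo1 and Robo2, the Slit receptors, were both highest in immature glutamatergic-like cells. Robo2 measured 301 and 237 CPM there, above every other class in both aliquots. Cajal-Retzius-like cells, the unnamed cluster, immature GABAergic-like and intermediate progenitor-like cells followed, with overlapping aliquots between 91.4 and 199. In mature glutamatergic-like cells Robo2 was at 46.1 and 20.6, and in radial glia-like cells at 16.6 in both aliquots. Robo1 reached 62.6 and 52.3 in immature glutamatergic-like cells and 55.3 and 36.0 in the unnamed cluster. Each class overlapped the next in the order of Robo1 levels, down to 5.55 and 1.19 in radial glia-like cells.

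Nrp1 and Nrp2, the semaphorin-binding neuropilins, were both high in mature glutamatergic-like cells, and their aliquots lay far apart there. Nrp1 stood at 359 and 690 CPM in that class and at 567 and 526 in immature glutamatergic-like cells, so these classes overlapped. The unnamed cluster (240 and 237) and intermediate progenitor-like cells (192 and 185) came next without overlap, and both GABAergic-like classes were at or below 35.1. Nrp2 measured 243 and 472 in mature glutamatergic-like cells against 103 and 86.5 in immature ones. Its Cajal-Retzius-like level, 284 and 23.9, came from 12 and 3 UMIs. Plxna4, an A-type plexin that carries semaphorin signals, was highest in immature glutamatergic-like cells (207 and 146) and the unnamed cluster (157 and 142), whose aliquots overlapped. In mature glutamatergic-like cells, where the neuropilins were high, Plxna4 was at 24.6 and 17.7.

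Of the netrin receptors, Unc5d was high in the middle of the glutamatergic series and low in radial glia-like and mature glutamatergic-like cells. It measured 111 and 116 CPM in intermediate progenitor-like cells and 113 and 59.7 in immature glutamatergic-like cells, which overlapped, and 21.8 and 22.0 in cycling radial glia-like cells. All other classes lay between 0 and 11.1. Dcc was scarce in every class, 130 UMIs in all. It reached 94.6 and 31.9 in Cajal-Retzius-like cells from 4 UMIs in each aliquot, 36.9 and 14.1 in intermediate progenitor-like cells, and at most 21.3 elsewhere. Dcc had too few counts for the class tests. Its 13 UMIs in intermediate progenitor-like against 3 in radial glia-like cells gave a ratio of 6.29 with a 95% counting interval of 1.73 to 34.4.

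Epha5, an ephrin-A receptor, was detected in every class and was the only one of the 10 genes whose highest level lay in a GABAergic-like class. Mature GABAergic-like cells held 902 and 924 CPM, and immature glutamatergic-like cells followed at 507 and 563. Mature glutamatergic-like (240 and 435), immature GABAergic-like (415 and 230) and intermediate progenitor-like cells (295 and 345) overlapped each other. The 2 radial glia-like classes ranged from 87.1 to 157.

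The step from radial glia-like to intermediate progenitor-like cells, the progenitors that leave the ventricular surface and produce glutamatergic neurons, came with higher levels of most of the genes. Of 9 genes tested, 7 rose and 0 fell at an adjusted p under 0.05 in edgeR's quasi-likelihood test, where 8.03% of all 7681 genes tested rose and 9.13% fell. Unc5d showed a log2 fold change of 3.80 ± 0.52 (SE, adjusted p = 6.60e-07), Nrp1 3.46 ± 0.43 (adjusted p = 5.83e-06) and Plxna4 3.26 ± 0.55 (adjusted p = 2.12e-05). Sema3c rose by 2.73, Robo2 by 2.70 and Nrp2 by 2.44 on the log2 scale. Epha5 rose by 1.18 ± 0.33 (adjusted p = 0.0219, and 0.0884 with 9 called doublets left out). Robo1, with 10 UMIs in intermediate progenitor-like and 2 in radial glia-like cells, gave a ratio of 7.26 with a 95% counting interval of 1.55 to 68.1 and an adjusted p of 0.0657, which was 0.0324 with the aliquot as a block. The median log2 change was 2.74 over the 8 genes with a UMI in these classes and -0.01 over all genes.

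Some of the other guidance genes rose as well. Of 98 listed genes 63 were tested, and 15 rose and 5 fell between these classes, against 8.03% and 9.13% of all genes. Their median log2 change was 0.56. Those that rose included 6 of 19 tested cytoplasmic effectors and 4 of 9 plexins and co-receptors. Of 9 netrin receptors and ligands 1 rose and 2 fell, and 0 of 4 Slit and Robo genes passed in either direction. Epha3, another ephrin-A receptor, rose from 16.6 and 17.8 to 236 and 181 CPM, and Cntn2, an axonal adhesion protein, from 5.55 and 10.7 to 118 and 106. Rnd2, a small GTPase needed for cortical neuron migration, rose from 16.6 and 19.0 to 221 and 142. Among those that fell, Rgma, a ligand of the netrin receptor relative neogenin, went from 61.0 and 66.5 to 14.7 and 17.6, and Dpysl4, a collapsin response mediator, from 33.3 and 83.1 to 14.7 and 33.4.

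From intermediate progenitor-like to immature glutamatergic-like cells, 4 of 9 genes rose and 0 fell, against 4.19% and 3.92% of all genes. Plxna4 changed by 1.53 ± 0.31 on the log2 scale (adjusted p = 9.27e-04), Nrp1 by 1.52 ± 0.30 (adjusted p = 0.00269), Robo1 by 1.90 ± 0.58 (adjusted p = 0.0343) and Robo2 by 1.23 ± 0.33 (adjusted p = 0.0218). Sema3c (0.33 ± 0.35), Nrp2 (0.38 ± 0.49), Epha5 (0.71 ± 0.31) and Unc5d (-0.54 ± 0.37) did not pass the test. Unc5d did so, at -1.38 (adjusted p = 0.0391), once the immature class held only the cells outside the cluster led by Tfap2d. Slit3 had 8 UMIs in immature glutamatergic-like cells and 0 in intermediate progenitor-like cells. With DESeq2's Wald test 1 of these 4 calls was kept, Nrp1. The median was 1.23 over the 9 genes, 0.71 with Slit3 at the bound that a count of 0 allows, and 0.02 over all genes.

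In this step 9 of 63 guidance genes tested rose and 4 fell, against 4.19% and 3.92% of all genes. Flrt3, an adhesion protein that binds Unc5 receptors, rose from 14.7 and 26.4 to 50.1 and 111 CPM, Efna3, an ephrin ligand, from 7.37 and 10.6 to 47.0 and 28.0, and Srgap1, a GTPase regulator that acts below Robo receptors, from 14.7 and 19.3 to 68.9 and 56.6. Rnd2 fell, from 221 and 142 to 62.6 and 53.5, and Epha4, a receptor for both ephrin classes, from 597 and 445 to 188 and 198. Rnd3, a second Rnd GTPase, fell by 1.78 on the log2 scale.

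Between immature and mature glutamatergic-like cells the receptors parted. Slit3 and Nrp2 rose and Robo2, Plxna4 and Unc5d fell, 2 up and 3 down of 9, where 3.01% of all genes rose and 1.67% fell. The log2 fold change was 4.42 ± 0.53 for Slit3 (adjusted p = 3.21e-07) and 2.06 ± 0.39 for Nrp2 (adjusted p = 0.00672). It was -3.86 ± 0.49 for Unc5d (adjusted p = 8.23e-07), -3.21 ± 0.35 for Robo2 (adjusted p = 2.92e-06) and -3.05 ± 0.32 for Plxna4 (adjusted p = 1.04e-08). Nrp1 (0.03 ± 0.27), Sema3c (-0.13 ± 0.31), Robo1 (-0.39 ± 0.42) and Epha5 (-0.58 ± 0.30) gave no call. The 5 calls were kept under DESeq2, with the block, without the shared barcodes and without the doublets. The fold of Nrp2 was 1.28 without the 951-cell aliquot. The median over the 9 genes was -0.39, against 0.01 over all genes.

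Among the 63 listed guidance genes tested 6 rose and 5 fell, against 3.01% and 1.67% of all genes. Dpysl4 rose from 12.5 and 14.3 to 58.4 and 61.7 CPM, Ntng1, a membrane-anchored netrin relative, from 12.5 and 3.73 to 39.9 and 19.2, and Ablim1, an actin-binding protein, from 3.13 and 12.4 to 27.6 and 37.6. Slit2, a Slit3 paralogue, fell from 47.0 and 22.4 to 9.22 and 3.55, opposite to Slit3. Epha3 fell from 210 and 188 to 24.6 and 48.2 and Flrt3 from 50.1 and 111 to 21.5 and 27.7.

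**Figure D2:**
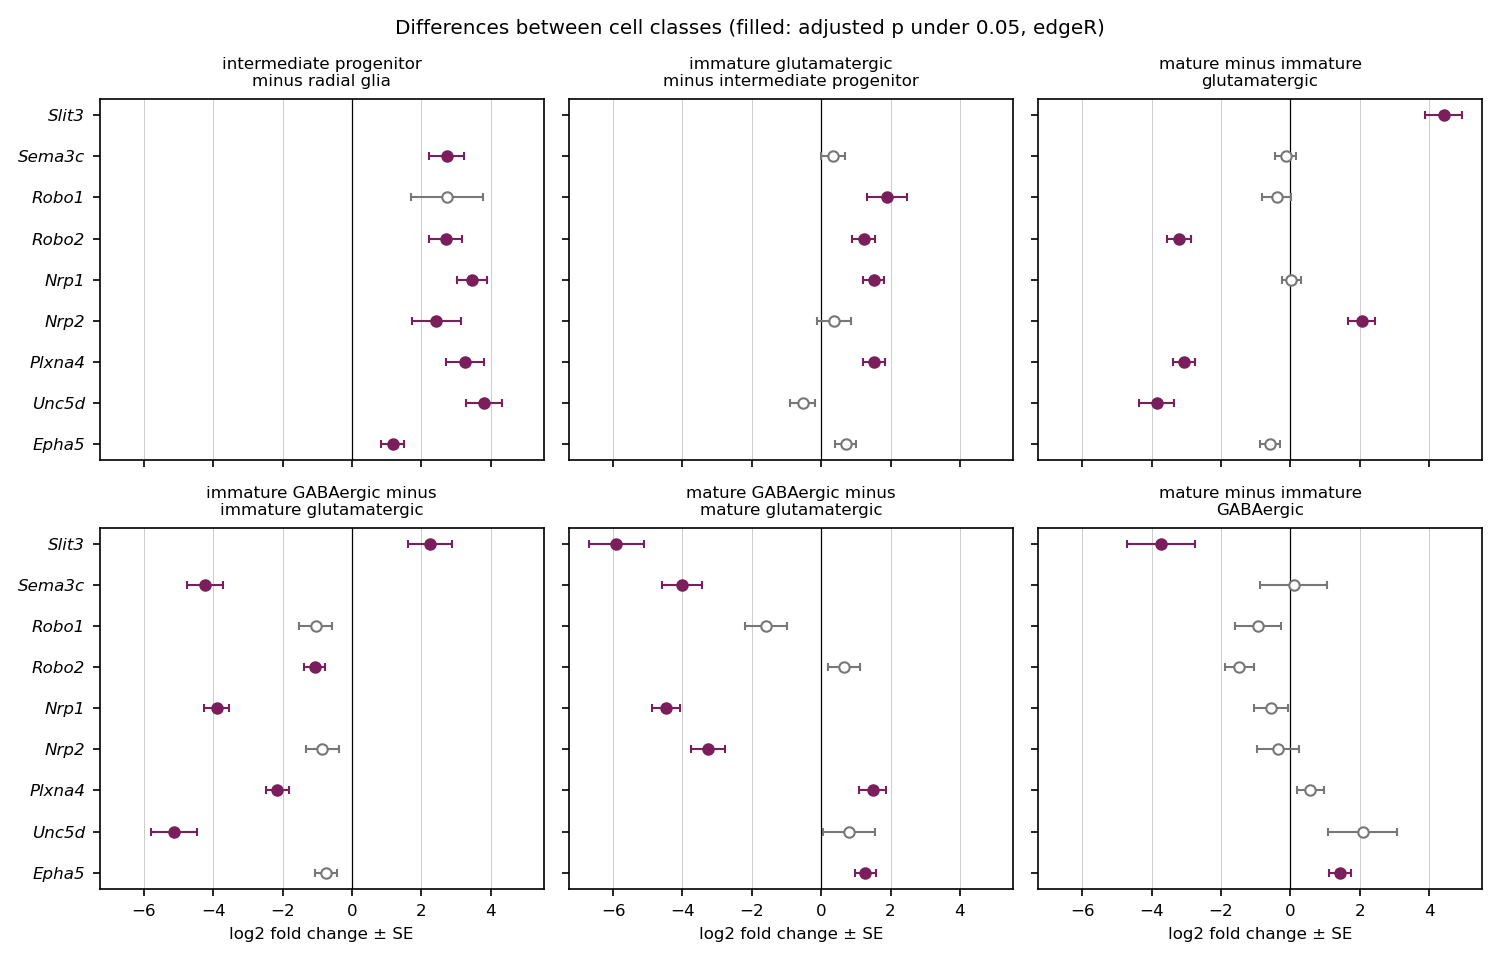
Log2 fold change of 9 genes (y axis; Dcc was not tested) in 6 comparisons between cell classes, with the standard error as the bar. Filled points passed an adjusted p under 0.05 and open points did not, and Slit3 has no point where a class held 0 UMIs. From mature minus immature glutamatergic-like cells, Slit3 (4.42) and Nrp2 (2.06) lie to the right and Robo2 (-3.21), Plxna4 (-3.05) and Unc5d (-3.86) to the left.

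Immature GABAergic-like cells held less of most of these genes than immature glutamatergic-like cells. Of 9 genes 1 was higher and 5 were lower, against 2.36% and 3.05% of all genes. Unc5d was at 0 and 2.42 CPM against 113 and 59.7, a ratio of 34.2 with a counting interval of 9.27 to 285. The log2 fold change was -4.23 ± 0.52 for Sema3c (adjusted p = 1.36e-07), -3.90 ± 0.36 for Nrp1 (adjusted p = 1.93e-07) and -2.15 ± 0.32 for Plxna4 (adjusted p = 5.81e-06). Robo2 (-1.08 ± 0.31, adjusted p = 0.0457) and Slit3, the 1 gene that was higher (2.25 ± 0.64, adjusted p = 0.0244), were at the edge: without the cells of shared barcodes their adjusted p was 0.106 and 0.0750, and DESeq2 gave 0.414 and 0.479. Epha5 was at -0.75 with an adjusted p of 0.242, and at -2.05 (adjusted p = 1.81e-05) when clusters were drawn at a resolution of 1.2. There the immature GABAergic-like class held 124 instead of 173 cells, and a cluster led by Htr3a, with Epha5 at 841 and 960 CPM, counted as mature GABAergic-like. The median was -1.08 over the 9 genes and -0.01 over all genes.

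Of the 63 listed genes tested 3 were higher and 8 lower in the immature GABAergic-like cells, against 2.36% and 3.05% of all genes. Rnd3 measured 111 and 145 CPM against 18.8 and 15.6, Dpysl4 52.6 and 53.3 against 12.5 and 14.3, and Epha4 708 and 416 against 188 and 198. Cntn2 was at 17.5 and 37.5 against 351 and 363, Slit2 at 0 and 4.84 against 47.0 and 22.4, and Dscam, an adhesion receptor that binds netrin, at 11.7 and 2.42 against 40.7 and 31.7.

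Mature GABAergic-like cells differed from mature glutamatergic-like cells in both ligands and both neuropilins. Of 9 genes 2 were higher and 4 lower, against 3.03% and 6.11% of all genes. Nrp1 was at 10.4 and 28.7 CPM against 359 and 690 (log2 fold change -4.48 ± 0.40, adjusted p = 7.24e-08), Nrp2 at 62.2 and 36.7 against 243 and 472 (-3.26 ± 0.50, adjusted p = 9.07e-04, and -2.12 without the 951-cell aliquot) and Sema3c at 10.4 and 4.79 against 64.5 and 101 (-4.01 ± 0.57, adjusted p = 1.62e-06). Slit3, with 1 UMI against 162, gave a ratio of 67.5 with a counting interval of 11.9 to 2683. Plxna4 was higher at 104 and 47.9 against 24.6 and 17.7 (1.48 ± 0.40, adjusted p = 0.0113, and 0.0868 with DESeq2), as was Epha5 (1.27 ± 0.30, adjusted p = 0.0128, and 0.0872 without the doublets). Robo1 had an adjusted p of 0.0987, and 0.00818 with the aliquot as a block. The median was -1.59 over the 9 genes and -0.06 over all genes.

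Here 4 of the 63 listed genes tested were higher and 15 lower, against 3.03% and 6.11% of all genes. Epha3 was at 93.3 and 95.8 CPM against 24.6 and 48.2. Ephb1, a B-type Eph receptor, had 0 UMIs in both aliquots against 98.3 and 51.8, Efna3 0 and 3.19 against 49.2 and 56.8, and Ablim1 0 and 3.19 against 27.6 and 37.6.

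Within the GABAergic-like cells fewer genes differed. Between mature and immature cells 1 of 9 was higher and 1 lower, against 1.18% and 1.56% of all genes. Epha5 was higher by a log2 fold change of 1.44 ± 0.32 (adjusted p = 0.0175, and 0.152 without the doublets), and by 0.95 without the 951-cell aliquot. Slit3 was lower, 1 UMI against 20, a ratio of 14.5 with a counting interval of 2.32 to 601 (adjusted p = 0.0234 in edgeR, 0.0653 without the shared barcodes and 0.459 with DESeq2). Robo2, at 10.4 and 54.3 against 158 and 104 CPM, had an adjusted p of 0.0590, and 0.00461 with the aliquot as a block. The median was -0.35 over the 9 genes and -0.03 over all genes. Of the 63 listed genes tested 3 were higher and 5 lower, against 1.18% and 1.56% of all genes. Among them were Chl1, an adhesion partner of neuropilins, at 207 and 241 against 11.7 and 27.8 CPM, and Epha4 at 156 and 109 against 708 and 416. Epha3 was higher by 1.37, and Flrt3 had a log2 fold change of -2.85 and Rnd3 of -1.84.

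The mature-minus-immature difference was itself compared between the glutamatergic-like and GABAergic-like pairs in the same fit. It differed for 4 of 9 genes, 1 with a positive and 3 with a negative sign, where 1.55% and 0.872% of all genes did. Plxna4 changed by -3.05 in the glutamatergic-like and by 0.58 in the GABAergic-like pair, a difference of -3.63 ± 0.52 (adjusted p = 8.78e-06). Epha5 changed by -0.58 and 1.44, a difference of -2.02 ± 0.43 (adjusted p = 0.0179, 0.151 without the doublets and 0.0621 without the Tfap2d cluster). For Slit3 (8.16, adjusted p = 1.86e-06) and Unc5d (-5.95, adjusted p = 9.58e-04) the size rests on a GABAergic-like class with 1 or 2 UMIs. With the aliquot as a block Robo2 (-1.89, adjusted p = 0.00528) and Nrp2 (2.69, adjusted p = 1.16e-05) passed as well.

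At a finer resolution the mature glutamatergic-like cells fell into a cluster of 72 cells led by Nts, Sox5 and Fezf2 and a cluster of 70 cells led by Crym, Grp and Lhx9, and the semaphorin genes separated them. The clusters were drawn after the levels were seen, so these values are a description with no test. Nrp1 was at 873 and 1008 CPM in the Crym cluster and at 107 and 253 in the Nts cluster. Nrp2 showed 601 and 662 against 64.3 and 161, Sema3c 197 and 182 against 0 and 19.1, and Slit3 150 and 132 against 42.9 and 36.6. All of these were higher in the Crym cluster in both aliquots without overlap. Robo1 went the other way, 0 and 30.3 against 38.6 and 68.5, as did Robo2, 28.2 and 11.7 against 60.1 and 38.2. The Crym cluster held 7 cells of the 190-cell and 63 of the 951-cell aliquot, and the Nts cluster 16 and 56. In the Nts cluster Nrp2 overlapped immature glutamatergic-like cells (103 and 86.5) and Sema3c overlapped mature GABAergic-like cells (10.4 and 4.79), so the higher Nrp2 and Sema3c of the whole mature class were not seen there. The Crym cluster had 4 of 8 mature glutamatergic markers raised and the Nts cluster 8 of 8. The levels of Nrp1 and Nrp2 in the whole mature class, which were higher in the 951-cell aliquot, moved with this makeup, whose part was not tested. Slit3 and Nrp2 were among the 10 genes with the largest fold in the Crym cluster, although neither was used to draw it.

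The immature glutamatergic-like class also joined a pair of clusters, 1 of 153 cells led by Tfap2d and Wnt7b and 1 of 87 led by Hs6st2 and Jakmip1. Nrp2 was at 176 and 142 CPM in the first and at 20.2 and 3.10 in the second, from 3 and 2 UMIs, and Slit3 was at 0 in the second. Unc5d measured 164 and 72.8 against 53.8 and 40.3, and Epha5 627 and 645 against 370 and 440, again higher in the first. Robo2 was higher in the second, 390 and 282 against 223 and 207. Without the Tfap2d cluster the 5 calls of the mature against the immature class were kept.

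**Figure D3:**
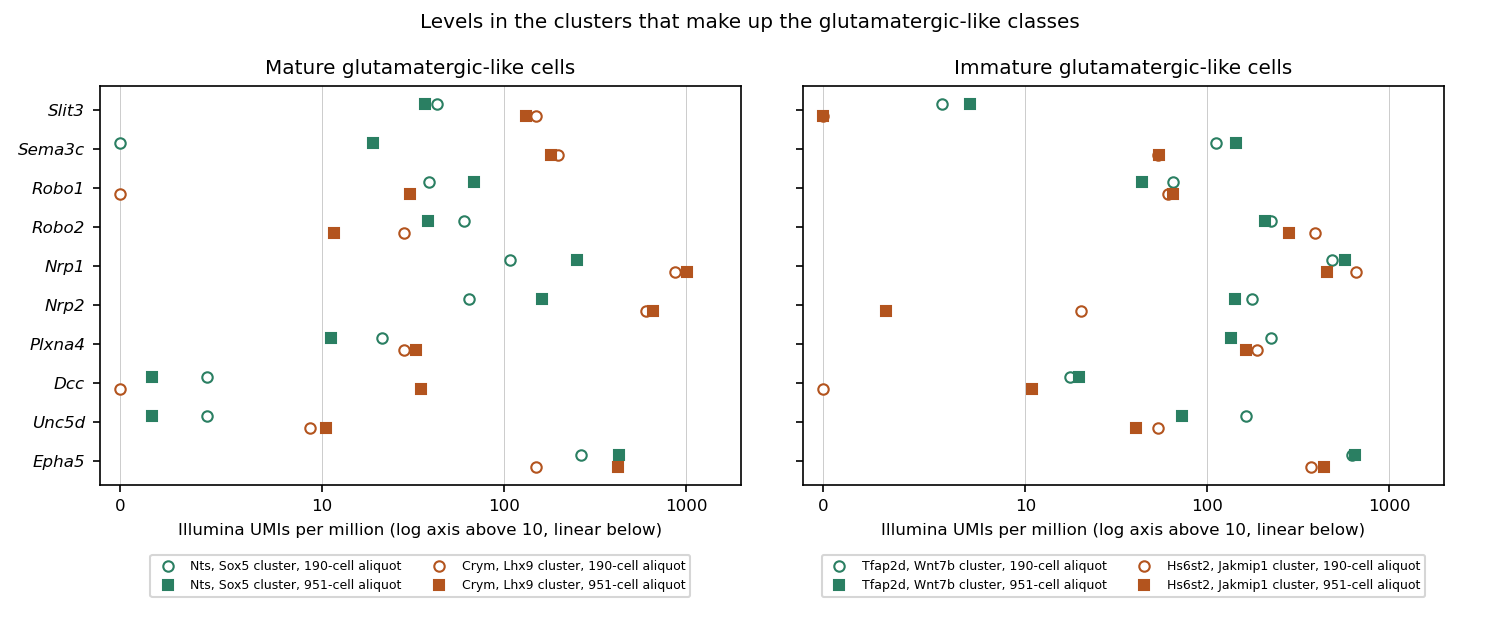
Illumina level of each gene (x axis, CPM, logarithmic above 10 and linear below) in the clusters of the mature (left) and immature (right) glutamatergic-like cells. Open circles are the 190-cell and filled squares the 951-cell aliquot. On the left Nrp1, Nrp2, Sema3c and Slit3 are higher in the Crym cluster, and on the right Nrp2 is lower in the Hs6st2 cluster, at 20.2 and 3.10.

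Over the 16 class sums (8 classes in 2 aliquots) the patterns of Nrp1 and Sema3c were the most alike of any pair among the 10 genes, with a Pearson r of 0.75 on log2(CPM + 10). Slit3 with Nrp2 (0.71) and Robo2 with Plxna4 (0.71) followed, and Slit3 with Unc5d was lowest (-0.41). These sums share libraries and are not independent. Among 5754 other genes with at least 200 UMIs the likest to Nrp1 were Bhlhe22 (0.95), Neurod2 (0.95) and Prdm8 (0.94), and to Slit3 Crym (0.89), Tpm3 (0.83) and B3gat1 (0.81). Sema3c was closest to Neurod1 (0.91), Mpv17l2 (0.88) and Ppp2r1b (0.85), Unc5d to Phf20l1 (0.91), Lrp8 (0.88) and Sstr2 (0.86), and Plxna4 to Psmd14 (0.89), Gmip (0.89) and Myt1l (0.86). Nrp2 was closest to Gm15800 (0.90), Xpr1 (0.88) and Ptpn9 (0.84), Epha5 to Fbxl15 (0.89), Brox (0.88) and Pip5k1c (0.87), and Robo1 to Celf2 (0.88), Mapk8ip2 (0.88) and Kif1a (0.87). For Robo2 they were Tsc22d1 (0.84) and Ube2ql1 (0.81), and for Dcc Igfbpl1 (0.80), Ubfd1 (0.80) and Hsp90ab1 (0.78). Dcc had 130 UMIs in all, fewer than the 200 asked of the other genes, so its pattern and its likest genes rest on few counts.

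The Nanopore tables count a molecule only where its whole exon structure matched an annotated isoform, and on this measure 10 of 10 genes were lower than on Illumina, with adjusted p of at most 0.0264 in edgeR. Of all 9855 genes tested 20.2% were higher and 30.3% lower on Nanopore. Nrp1 had the smallest difference, with 143 and 830 Nanopore UMIs against 419 and 2333 on Illumina (log2 fold change -0.57 ± 0.15, adjusted p = 0.0237). Sema3c had 17 and 130 against 77 and 396 (-0.80 ± 0.22, adjusted p = 0.0264, and 0.0956 with DESeq2), Robo2 42 and 181 against 211 and 874 (-1.37 ± 0.13) and Epha5 62 and 319 against 527 and 2991 (-2.21 ± 0.14). Slit3 kept 2 and 16 of 32 and 168 (-2.52 ± 0.29) and Plxna4 4 and 12 of 146 and 554 (-4.56 ± 0.25). Nrp2 fell from 151 and 996 Illumina UMIs to 1 and 2, a share 231 times lower with a counting interval of 78.8 to 1121. That interval takes the counts of the platforms as independent, although Nanopore UMIs were assigned through Illumina ones. Robo1, Unc5d and Dcc had 1 Nanopore UMI each, in the 190-cell aliquot, and no row in the 951-cell table analysed here, counted as 0, against 299, 269 and 130 Illumina UMIs in all.

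Transcript length moved with this difference across genes. The median log2 fold change was 0.56 for the 1912 genes whose longest annotated isoform was under 2 kb and -1.81 for the 637 genes of at least 8 kb (Spearman rho -0.59 over 9701 genes, which share the 4 libraries). Nrp1, at 3.65 kb, was the shortest of the 10 genes, and Plxna4, at 12.9 kb, the longest. Nrp2 (6.72 kb) and Robo1 (7.56 kb) lay under -2.65, the lower quartile of genes of 6 to 8 kb, and Unc5d (9.22 kb), Dcc (10.3 kb) and Plxna4 under -3.27, that of genes of at least 8 kb. Slit3 (5.23 kb) and Nrp1 also lay under the lower quartile of their length, -1.71 for 4 to 6 kb and -0.45 for 2 to 4 kb. Robo2 (8.59 kb) lay above the median of its length, while Sema3c (5.49 kb) and Epha5 (7.33 kb) lay between the lower quartile and the median. Of the Nanopore UMIs of Robo2, Sema3c and Epha5, 131 of 223, 74 of 147 and 317 of 381 were on shorter forms described below. Their place by longest isoform thus does not show how well their long forms were captured. The part of length in the platform difference was not tested.

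**Figure D4:**
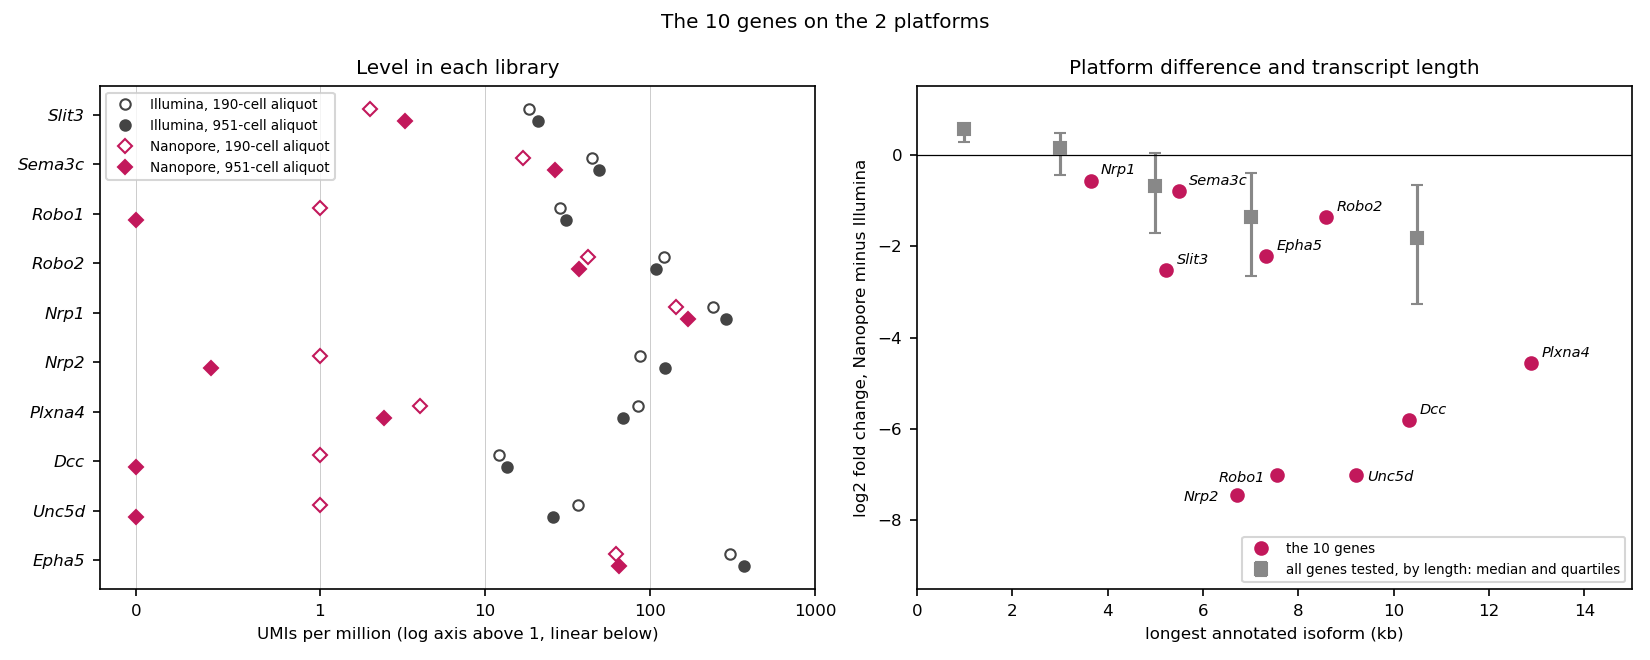
Left, the level of each gene in the 4 libraries in CPM of the genes in both tables (x axis, logarithmic above 1, linear below). Open markers are the 190-cell and filled markers the 951-cell aliquot, and all Nanopore diamonds lie left of the Illumina circles of the same gene. Right, the log2 fold change between platforms against the length of the longest annotated isoform, with the 10 genes as points and all genes as medians with quartiles in 5 length bins, from 0.56 under 2 kb to -1.81 at 8 kb and above.

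For 3 of the genes the isoform with the most Nanopore UMIs was a short transcript that holds the first exons, runs into an early intron and ends there. Of 4 genes here with at least 50 Nanopore UMIs, 3 had such a form, annotated as a retained intron without a coding sequence, as their most abundant isoform, whereas 165 of 6303 genes (2.62%) with that many UMIs were led by a retained-intron isoform. Retained-intron isoforms held 91.6% of the Epha5, 65.9% of the Robo2 and 63.3% of the Sema3c UMIs, against 1.93% of all Nanopore UMIs and 0.719% of those of Nrp1. These shares count only molecules that matched an isoform in full. Such molecules numbered 381 for Epha5, 223 for Robo2 and 147 for Sema3c, against 3518, 1085 and 473 Illumina UMIs. The leading forms, of 2246, 4057 and 1549 bases, were shorter than the coding forms Epha5-203, Robo2-202 and Sema3c-201, of 5166, 5988 and 5491 bases. The shares thus do not give the non-coding part of each gene's mRNA, and the 2.62% was not matched for length.

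Robo2 (chromosome 16, 73891839 to 74411825 of GRCm38, minus strand) had 131 of 223 UMIs on Robo2-209, 64.3% in the 190-cell and 57.5% in the 951-cell aliquot (58.7% in all, 95% exact binomial interval 52.0 to 65.3). This isoform of 4057 bases holds exons 1 and 2 and then 2756 bases of the 305613-base intron that follows. The full coding form Robo2-202, with 26 exons and 5988 bases, had 56 UMIs (25.1%, interval 19.6 to 31.3), and a coding form that starts far downstream had 14. Epha5 (chromosome 5, 84054761 to 84417382, minus strand) had 317 of 381 UMIs on Epha5-207, 87.1% and 82.4% (83.2% in all, interval 79.1 to 86.8), which holds 3 exons and 453 bases of intron. A second retained-intron form, Epha5-210, had 23 UMIs, and 5 coding forms had 4 to 11 each. Sema3c (chromosome 5, 17574281 to 17730268, plus strand) had 74 of 147 UMIs on Sema3c-205, 47.1% and 50.8% (50.3% in all, interval 42.0 to 58.7), which holds 2 exons and 1208 bases of intron. The coding form Sema3c-201 had 54 UMIs (36.7%, interval 28.9 to 45.1), and Sema3c-202, a retained-intron form at the downstream end of the gene, had 19. The leading isoform was the same in both aliquots for all 3 genes.

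The point at which each of these isoforms leaves the coding form is printed here, since it is what the long reads resolve and 3′ tags do not. Each line gives 15 bases of the shared exon in lower case, followed in capitals by the next 15 bases: intron in the first line of each pair, the next coding exon in the second. The windows lie at chr16:74352536-74352565 for Robo2-209, chr5:84331213-84331242 for Epha5-207 (both minus strand) and chr5:17576956-17576985 for Sema3c-205 (plus strand) of GRCm38, and the bases are from the GENCODE vM21 transcripts.
Robo2-209: ctctggaagtggcatGTAAGTAGACGCCAT
Robo2-202: ctctggaagtggcatTATTGCGAGATGACT
Epha5-207: atggtacctgccaagGTAAGCCTTTGCCTG
Epha5-203: atggtacctgccaagTGTGCAGACCTGGGT
Sema3c-205: atttaacatttgatgGTAAGAAATTTGATA
Sema3c-201: atttaacatttgatgAGCTTCGAGAAACCA

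All 3 introns open with GTAAG, the start of a usual donor site, which is left unspliced in the retained-intron form. In the last 50 bases the 3 retained-intron isoforms hold neither AATAAA nor ATTAAA, the common polyadenylation signals, on the transcript strand, whereas the 3 coding isoforms hold at least 1 of them, as do 33.8% of 141672 annotated transcripts. The last 30 bases held 6 A in Robo2-209, 12 in Epha5-207 and 19 in Sema3c-205. They held 14 in Robo2-202, 16 in Epha5-203 and 14 in Sema3c-201, with a median of 10 over all annotated transcripts. All these bases are those of the annotated transcripts, and the ends of the reads were not examined. The study reports reverse transcription primed at A-rich stretches inside RNAs, introns of partly spliced mRNAs among them. The part of such priming in the retained-intron forms was not tested, and these A counts cannot show it.

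**Figure D5:**
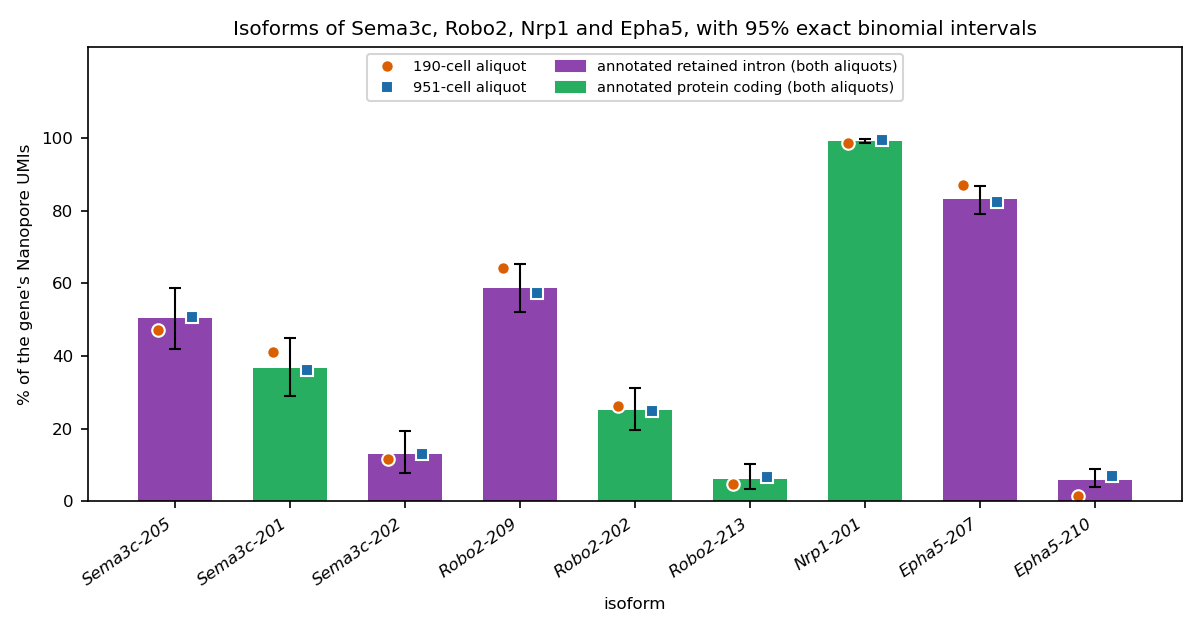
Share of each gene's Nanopore UMIs (y axis, %) on the isoforms with at least 5% of them, for Sema3c, Robo2, Nrp1 and Epha5. Only molecules that matched an isoform in full are counted. Bars pool both aliquots with 95% exact binomial intervals as lines, circles are the 190-cell and squares the 951-cell aliquot, and purple marks retained-intron and green protein-coding isoforms. The tallest bar is a retained-intron form for Sema3c (50.3%), Robo2 (58.7%) and Epha5 (83.2%) and the coding Nrp1-201 (99.3%) for Nrp1.

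Nrp1 was the contrast: 966 of its 973 UMIs were on Nrp1-201, a coding isoform of 17 exons and 3597 bases (99.3%, interval 98.5 to 99.7). All 18 UMIs of Slit3 were on Slit3-201 (36 exons) and all 16 of Plxna4 on Plxna4-201 (32 exons, 12877 bases). The 3 Nrp2 UMIs fell on 3 coding isoforms, and the single UMIs of Robo1, Dcc and Unc5d on a coding form each.

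The retained-intron forms were found across classes. Epha5-207 held between 70.0% and 89.5% of the Epha5 UMIs in the 8 classes in the tests, with 81.8% (interval 72.8 to 88.9) in immature glutamatergic-like cells, 80.8% (70.3 to 88.8) in mature glutamatergic-like cells and 86.0% (77.9 to 91.9) in mature GABAergic-like cells. Robo2-209 held 51.1% (40.5 to 61.5) in immature glutamatergic-like cells, 69.2% (48.2 to 85.7) in immature GABAergic-like cells, 66.7% (43.0 to 85.4) in intermediate progenitor-like cells and 62.8% (46.7 to 77.0) in the unnamed cluster. Sema3c-205 held 52.2% (39.7 to 64.6) in immature and 49.0% (34.4 to 63.7) in mature glutamatergic-like cells. For each of these isoforms the intervals of all classes with a UMI of the gene overlapped, and they cover counting error only. No gene had a pair of isoforms past the count filter, so the planned isoform test gave no value for any of the 10. With isoforms of at least 10 UMIs, edgeR's test of isoform usage called 0 of 3 genes (Robo2, Sema3c and Epha5) in each of 6 class comparisons. Over all 3262 genes tested it called 30, 14, 8, 3, 6 and 0 in the order of the text. With so few calls, 0 of 3 does not show that isoform usage was the same across classes. Of the 3 genes 0 passed also at an unadjusted p under 0.05, the smallest p being 0.0668 for Robo2 between the immature classes.

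Gene sums from Nanopore gave the class pattern of the better covered genes in part and with fewer counts. The study assigned Nanopore UMIs by matching them to Illumina UMIs of the same cell and gene or genomic region. These sums therefore read part of the Illumina molecules again and are not an independent measurement. Nrp1, Robo2, Sema3c and Epha5 passed the count filter. All 4 rose from radial glia-like to intermediate progenitor-like cells, and Epha5 was highest in mature GABAergic-like cells at 268 and 257 CPM of Nanopore UMIs, against 82.3 and 89.9 in immature glutamatergic-like cells. Nrp1 stood at 400 and 335 in immature and 214 and 419 in mature glutamatergic-like cells, and at 0 and 11.1 in mature GABAergic-like cells. Robo2 in immature glutamatergic-like cells, at 94.1 and 82.5, was not above every other class as it was on Illumina. It measured 124 and 35.4 in intermediate progenitor-like cells, and 49.4 and 120 in Cajal-Retzius-like cells from 1 and 8 UMIs.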

How the data were processed

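Processed tables of 4 libraries were used. Per the labels, reads of the Illumina libraries were processed with Cell Ranger 2.0 on mm10 (GRCm38), and the deposited files hold raw counts of UMIs per gene and cell. For the Nanopore libraries the authors accepted cell barcodes and UMIs only where they matched Illumina ones of the same gene or genomic region. They aligned UMI consensus sequences with minimap2, and deposited counts of UMIs per GENCODE vM18 isoform and cell. A UMI was counted only where its exons matched an isoform in full. All 32 isoforms of the 10 genes were found in GENCODE vM21, which gave names and coordinates, 31 in the same version. Cells with fewer than 1400 Illumina genes were left out, as in the study.

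Clusters came from Seurat 5.3.0 (2000 variable genes, 11 dimensions, resolution 0.8, both aliquots integrated) without the 10 genes and the 98 listed ones. A cluster was named where at least 3 markers were higher by 0.5 on the log2 scale and its list led the next by 0.2; this rule was set after the clusters were seen. Scrublet (scanpy 1.11.5) called 9 doublets, which were kept and left out in an alternative. Raw counts were summed per class and aliquot, where both aliquots gave 5 or more cells of it, which left Cajal-Retzius-like cells (4 and 13) out of the tests, and tested with edgeR 4.0.16 (TMM, filterByExpr, robust quasi-likelihood F test) with Benjamini-Hochberg adjustment over all genes and a threshold of 0.05. Standard errors are the log2 fold change divided by the root of F. The platform test used the 4 library sums over 12561 symbols in both tables, and isoform usage diffSpliceDGE. Intervals are exact binomial and, like the floor of 3 counts used for a class at 0, cover counting error only. Same-numbered sums deviated together (r from 0.147 to 0.322 over 28 pairs of classes, 0.597 between platforms). The aliquot number marks the same library for the class sums and the same droplets for the platform sums, so it pairs them. The main tests did not use this pairing, and the fit with the aliquot as a block is an alternative. Scripts were tested on simulated data. All 10 genes are described; listed genes are named where they were called, had at least 50 UMIs and were among the 3 with the largest change in a direction. The 3 genes most like each of the 10 were taken, of which 1 for Robo2 is not reported here. The 10 genes, the lists and the tests were chosen with earlier results of these data known, and the tests of the mature-minus-immature difference and the alternatives without shared barcodes or the Tfap2d cluster were added after the data were seen.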

Additional observations from a re-analysis of the deposited data

Results flagged for a closer look

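In the same fit, 4 genes differed between the glutamatergic-like and GABAergic-like pairs in their mature-minus-immature change. The difference was 8.16 on the log2 scale for Slit3, -3.63 for Plxna4, -5.95 for Unc5d and -2.02 for Epha5, each by edgeR's quasi-likelihood test of the difference itself. Slit3 rose in the glutamatergic-like pair by 4.42 and had a log2 change of -3.74 in the GABAergic-like pair. Plxna4 and Unc5d fell in the glutamatergic-like pair by 3.05 and 3.86, and their GABAergic-like changes of 0.58 and 2.09 did not pass the test. Epha5 rose in the GABAergic-like pair by 1.44, while its glutamatergic-like change of -0.58 did not pass. Without the 9 called doublets neither its GABAergic-like change (adjusted p = 0.152 in edgeR) nor its difference (0.151) passed, and without the Tfap2d cluster the difference did not either (0.0621). The sizes for Slit3 and Unc5d rest on GABAergic-like classes with 1 and 2 UMIs. The immature GABAergic-like cells were led by other lineage genes than the mature ones, so maturity and cell lineage cannot be told apart there. Groups of 2 libraries are too small for a check of single outlying libraries.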

How the results depend on the processing

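No value called with edgeR reversed its direction in the alternatives run. Values that were not called were not followed through every alternative, and Nrp1 between mature and immature glutamatergic-like cells turned with the aliquot (359 against 567 and 690 against 526 CPM). DESeq2's Wald test called 1 of the 10 genes from intermediate progenitor-like to immature glutamatergic-like cells (4 with edgeR) and 1 between the GABAergic-like classes (2 with edgeR), where 1 was also left without the doublets and without the shared barcodes. Over all genes DESeq2 called 615, 217, 135, 207, 301 and 78 in the 6 class comparisons in the order of the text and 3071 between platforms, against 1318, 623, 359, 415, 702, 211 and 4976 with edgeR, and 69 against 186 for the mature-minus-immature difference. With Nanopore UMIs, which were assigned through the Illumina ones, only 4 of the 10 genes passed the count filter. Among them 4, 1, 1, 3, 3 and 1 were called in the 6 class comparisons and 1 in the mature-minus-immature difference. Over all 4645 genes tested the calls were 990, 480, 332, 293, 479, 154 and 140. The main values, 7, 4, 5, 6, 6, 2 and 4, are counts among 9 genes tested.

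With the aliquot as a replicate block, which pairs the sums, 8, 4, 5, 6, 7 and 3 of the genes were called in the class comparisons, 6 in the mature-minus-immature difference and 10 between platforms, and over all genes 1830, 1103, 1002, 785, 1176, 466, 429 and 6972. The genes gained are named with their results, and no call was lost under the block. The isoform test with the block held none of the 10 genes and so says nothing of them.

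Leaving out an aliquot leaves 1 sum per class and no test. Of the values followed, 29 moved and 26 stayed the same without the 951-cell aliquot, and 9 moved and 46 stayed without the 190-cell aliquot. A fold counted as moved where it changed by more than its SE. As examples beyond those given with the results, Sema3c moved without the 951-cell aliquot in 2 comparisons. It was at 1.81 instead of 2.73 from radial glia-like to intermediate progenitor-like cells and at -1.22 instead of -0.80 between platforms. Genes at 0 to 3 UMIs in a class or platform depend on single molecules. The alternatives without shared barcodes and without the Tfap2d cluster were chosen after seeing the data. Both aliquots came from 1 embryo, so no value measures the spread between animals.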
